A study of Mus musculus with 2 samples.

Results

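Scaffold proteins that tie actin filaments to cell-matrix adhesions or to muscle Z-discs were examined through 7 genes in D16 and D351, which are 2 mouse mesoangioblast clones. They were Palld, Tns1, Flnc, Pgm5, Synpo, Synpo2 and Vcl, chosen by name for that function, with earlier ratios from these same arrays known, so their values are a description and no test is attached to them. All probe sets whose platform annotation gives exactly 1 symbol, that symbol being one of these, were taken: 11 probe sets among 10581 with 1 symbol, or 7 genes among 7542. Palld had 3 probe sets, Tns1 and Synpo had 2 each, and the other 4 genes had 1 each.

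Mesoangioblasts are vessel-associated progenitor cells able to form smooth muscle and other cells of mesodermal origin. Both clones started from dorsal aorta of C57BL6 embryos at day 9.5, kept for 5 days as an explant and cloned by limiting dilution. The feeder layer was primary mouse embryo fibroblasts exposed to Mitomycin C, and the medium RPMI with 20% Fetal Calf Serum. Clones were then expanded on gelatin-coated dishes, and the labels give no treatment or genetic change that separates D16 from D351. Each clone's total RNA was measured on 1 U74B expression array, so each group is 1 clone on 1 array, there is no spread between replicates, and every difference is between 2 RNA samples. In such bulk RNA a smaller share of cells with a transcript and less of it per cell cannot be told apart.

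Integrins hold the extracellular matrix on the outside of the cell and, through layers of adaptor proteins on the inside, pull on actin bundles. Talin and vinculin carry the load, tensins bind integrin tails and actin, and palladin and synaptopodins organise the actin bundles that end at these sites. In muscle the same families reappear at Z-discs and costameres, where filamin C crosslinks actin and links it to the membrane. In smooth muscle and its progenitors these scaffolds anchor the contractile filaments to the cell surface.

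The summed signal was 653854 for D16 and 646285 for D351, and the median signals were 16.6 and 16.9. A floor of 16.8, the pooled median of both arrays without controls, stands for the lowest signal that is given a ratio. Lower values were raised to it, which makes the ratio a bound where this happened on 1 array, and a probe set under it on both has none. The size rule asked for a difference of at least 2-fold after this step. Of the markers listed for mesoangioblasts 3 of 14 had a probe set here: the adhesion receptor Cd44 read 1164.5 in D16 and 1092.5 in D351, the proteoglycan gene Cspg4 read 83.3 and 26.1, and Eng, an endothelial co-receptor, was under the floor on both. Cd34, Kit, Kdr, Ly6a, Thy1 and Acta2 were not measured here, so the labelled cell type could be checked only in part.

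Palld, Tns1 and Pgm5 had higher signals in D351, Flnc had a higher signal in D16, and Synpo was close to equal. Of the 7 genes, 5 were measured, and Synpo2 and Vcl stayed under the floor on both arrays. By the brightest probe set of each gene 3 were at least 2-fold higher in D351, a size reached in that direction by 9.49% of the 4922 measured genes, and 1 was at least 2-fold lower, against 8.57%. Counted by probe set, 4 of the 9 measured ones were at least 2-fold higher in D351 (9.23% of all 6920 measured probe sets) and 1 was at least 2-fold lower (7.99%). Among the 7 probe sets that reached the floor in both clones 3 were 2-fold higher and 1 was 2-fold lower, against 7.86% and 7.88% of the 5509 such probe sets. The genes had been picked with these ratios known, so nothing is read from these shares.

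**Figure D1:**
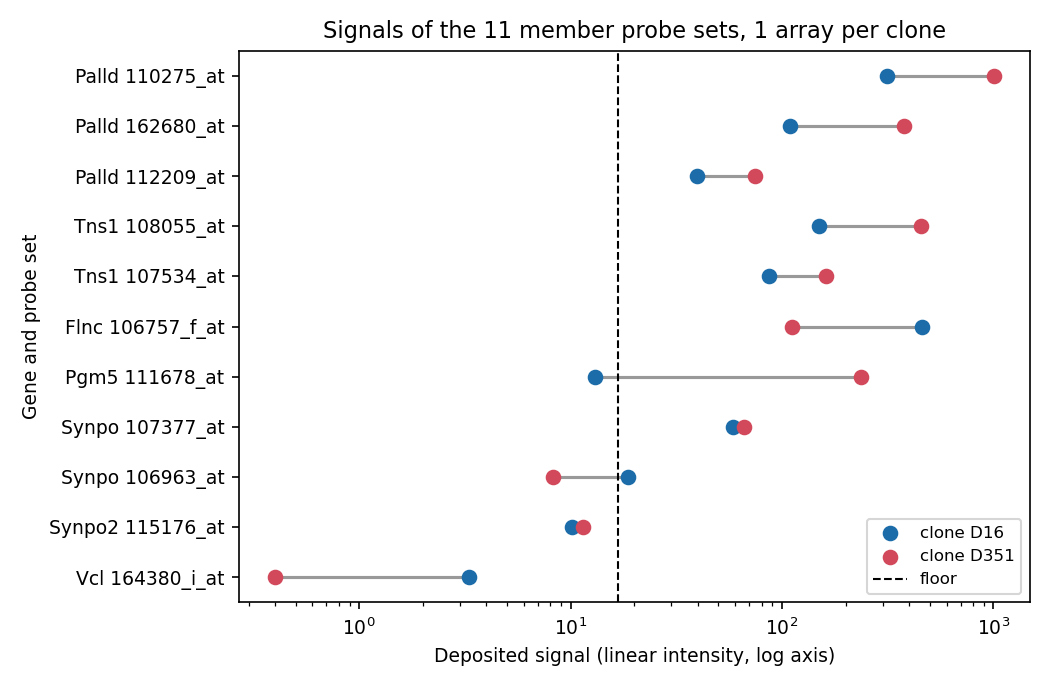
Deposited signal of each of the 11 probe sets (horizontal, linear intensity on a log axis) in clone D16 (blue) and clone D351 (red), 1 array per clone, with the floor of 16.8 as a dashed line. The Palld, Tns1 and Pgm5 probe sets lie to the right in D351, Flnc lies to the right in D16, and Synpo2 and Vcl lie left of the floor in both.

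Palladin, the product of Palld, is an immunoglobulin-domain scaffold that binds alpha-actinin and bundles actin in stress fibres. Probe set 110275_at read 315.3 in D16 and 1003.9 in D351, which is 3.18-fold higher in D351 (log2 ratio 1.67). Probe set 162680_at read 108.7 and 376.6, a 3.46-fold difference (log2 1.79). Probe set 112209_at read 39.8 and 74.1 and stayed short of the size rule at 1.86-fold (log2 0.90). All 3 were above the floor on both arrays and all were higher in D351, with ratios spread over 0.90 on the log2 scale. The dimmest of them had the smallest ratio. Between the 2 brightest the ratios differed by 0.12, where the median absolute difference over 1113 genes with at least 2 measured probe sets was 0.41. Because they share both arrays, this covers probe design and not the spread between cultures.

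Tensin 1, from Tns1, couples the cytoplasmic tails of beta integrins to actin and is typical of the long-lived fibrillar adhesions. Probe set 108055_at read 148.8 in D16 and 456.2 in D351, 3.07-fold higher in D351 (log2 1.62). The other, 107534_at, read 87.2 and 161.4, or 1.85-fold (log2 0.89). Both were higher in D351, and they differed by 0.73 on the log2 scale, more than 72.7% of such pairs. The size of the Tns1 difference therefore depended on the probe set, and its direction did not.

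Pgm5 encodes aciculin, a relative of phosphoglucomutase without its enzyme activity that sits at adherens junctions, focal adhesions and the costameres of muscle, where it binds dystrophin and utrophin. Its single probe set, 111678_at, read 13.1 in D16 and 237.6 in D351. The D16 value is under the floor, so D351 was at least 14.1-fold higher (log2 ratio of at least 3.82). The value rests on 1 plain probe set, and the bound moves with the floor. In signal units the difference was 224.5, smaller than the 688.6 of the brightest Palld probe set.

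Filamin C, from Flnc, is the muscle filamin: it crosslinks actin and binds partners at Z-discs and at the membrane, among them Xin proteins, myotilin and sarcoglycans. Probe set 106757_f_at read 457.2 in D16 and 111.6 in D351, 4.10-fold lower in D351 (log2 -2.03). Only 1.08% of measured probe sets had a lower ratio. Flnc was the single member past the size rule towards D16. Its probe set carries the _f ending, given to designs that share probes with related transcripts.

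Synaptopodin, from Synpo, binds actin and alpha-actinin and is best known from podocytes and dendritic spines. Probe set 107377_at read 58.8 in D16 and 65.8 in D351 (log2 0.16, or 1.12-fold). Probe set 106963_at read 18.6 and 8.3, with D351 under the floor, so its log2 ratio is at most -0.15. The clones were thus within 1.12-fold on the brighter probe set, and the dimmer one is close to the floor, with a log2 ratio of -1.16 when the floor was lowered to the 25th percentile. Its muscle relative synaptopodin 2 (myopodin), from Synpo2, binds filamin C and alpha-actinin at the Z-disc. The Synpo2 probe set 115176_at read 10.2 and 11.5, both under the floor.

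Vinculin, from Vcl, binds talin and actin and reinforces adhesions under load. The 1 Vcl probe set, 164380_i_at, read 3.3 in D16 and 0.4 in D351, under the floor on both arrays. Its _i ending marks an incomplete probe set, with fewer probes than usual. These values give no ratio and do not show that vinculin transcripts were missing from the cells.

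**Figure D2:**
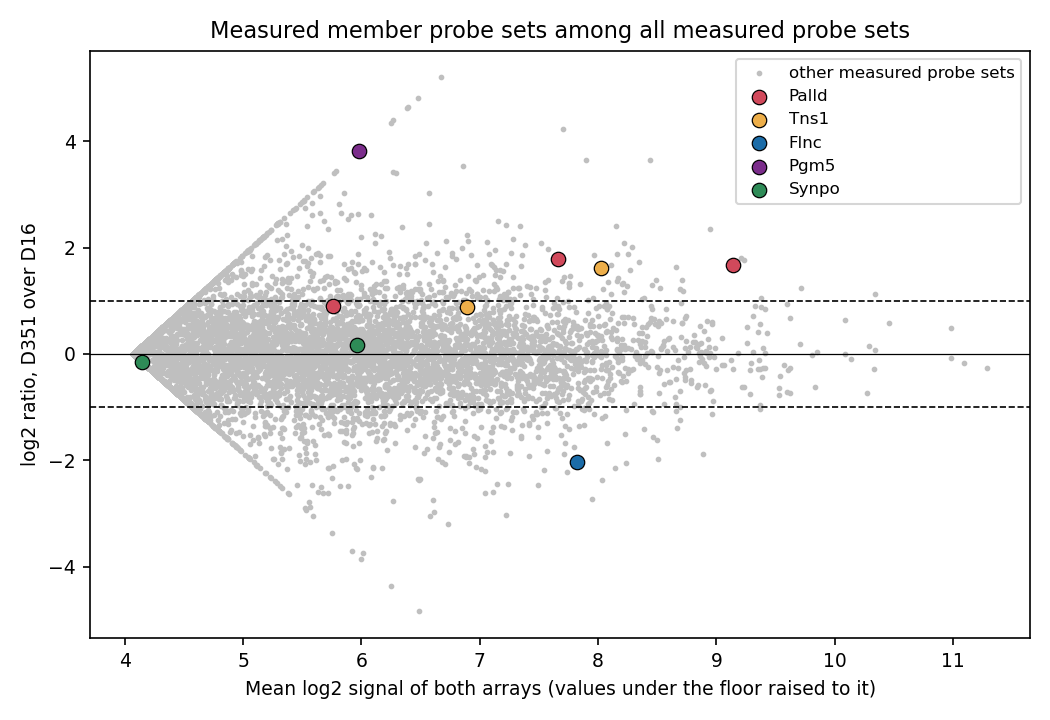
Log2 ratio of D351 over D16 (vertical) against the mean log2 signal of both arrays (horizontal, values under the floor raised to it) for all measured probe sets (grey) and the 9 measured probe sets of 5 members (coloured), with dashed lines at 2-fold. Pgm5 lies at 3.82 on the edge formed by bounds, the brightest Palld and Tns1 probe sets lie at 1.67 and 1.62, and Flnc lies at -2.03.

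Starts of transcription were looked up in RefSeq promoter windows of assembly GRCm38.p6, each with 250 bases before and 50 after an annotated start. Of the 7 genes 6 matched, with 9 windows in all, 3 of them for Palld and 2 overlapping ones for Flnc; Synpo was not matched. The windows were searched on both strands for 3 motifs bound by regulators of muscle and adhesion genes: the CArG box of serum response factor, the MCAT element of TEAD factors (CATTCC or its complement GGAATG) and the AP-1 element (TGAGTCA or its complement TGACTCA). A CArG box was in 1 of the 9 windows, that of Vcl, and in 1.63% of all 32851 windows. MCAT was in 4 of the 9, in Palld, Flnc and Vcl, and in 14.7% of all windows, although the same Flnc match is counted in both of its overlapping windows. AP-1 was in 1 of the 9, at a Palld start, and in 5.20% of all windows. The windows of Pgm5, Tns1 and Synpo2 and the first of the Palld starts held none of the 3.

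Stretches of 150 bases are shown for the 4 members past the size rule and for Vcl, the gene with the CArG box. They are RefSeq sequence of GRCm38.p6 on the coding strand, with motif matches in capitals. Those of Pgm5 (chr19:24861843-24861992, minus strand) and Tns1 (chr1:74124549-74124698, minus strand) end at the base before the start and hold no match. The Palld stretches end at the base before 2 internal starts, at chr8:61760090-61760239 with MCAT and at chr8:61591140-61591289 with AP-1, both on the minus strand. The Flnc stretch (chr6:29433033-29433182, plus strand) runs from 120 bases before its first start to 30 after it. The Vcl stretch (chr14:20929148-20929297, plus strand) begins 250 bases before its start and holds the CArG box and MCAT.
Pgm5: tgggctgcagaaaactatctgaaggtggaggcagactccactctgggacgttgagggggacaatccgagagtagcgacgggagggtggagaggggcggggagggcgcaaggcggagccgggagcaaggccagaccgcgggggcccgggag
Tns1: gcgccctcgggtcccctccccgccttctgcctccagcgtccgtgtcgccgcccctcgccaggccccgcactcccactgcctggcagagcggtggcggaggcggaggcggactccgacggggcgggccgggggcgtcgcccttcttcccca
Palld, start with MCAT: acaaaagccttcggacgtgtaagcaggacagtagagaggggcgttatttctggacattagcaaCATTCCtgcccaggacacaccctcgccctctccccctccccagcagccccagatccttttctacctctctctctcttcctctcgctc
Palld, start with AP-1: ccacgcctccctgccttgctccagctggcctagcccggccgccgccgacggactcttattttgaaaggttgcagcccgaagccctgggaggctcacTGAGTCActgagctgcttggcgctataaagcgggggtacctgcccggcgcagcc
Flnc: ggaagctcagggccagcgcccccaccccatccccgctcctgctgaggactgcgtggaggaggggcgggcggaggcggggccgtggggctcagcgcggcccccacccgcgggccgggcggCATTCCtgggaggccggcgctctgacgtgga
Vcl: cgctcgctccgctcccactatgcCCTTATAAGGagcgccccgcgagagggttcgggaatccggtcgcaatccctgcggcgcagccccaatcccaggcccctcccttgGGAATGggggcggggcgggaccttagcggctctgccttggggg
The CArG match CCTTATAAGG of Vcl began 227 bases before the start, and its MCAT match 143 before. The Palld MCAT match began 87 bases before its start and the AP-1 match 54 before the other start. The Flnc match began 1 base before the first annotated start, across which it runs, and 104 bases before the second. The 3 genes higher in D351 shared no motif of these in every window, and the MCAT letters were found both at a gene higher in D351 (Palld) and at the gene lower in D351 (Flnc). A match describes letters in a window and is not a binding site, and the arrays do not tell which of the Palld starts was used.

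Related genes were taken from 5 lists, with 169 genes in all, of which 66 had a probe set with 1 symbol and 46 were measured. Among these 46, 2-fold higher signals in D351 were found for 9 (19.6%, against 9.49% of all measured genes) and 2-fold lower ones for 2 (4.35%, against 8.57%), with a median log2 ratio of 0.32 against -0.01 for all measured genes. The lists were chosen with earlier results of these arrays known. Focal adhesion adaptors were mostly above 0, in 19 of 22 measured genes, where 48.8% of all measured genes were, with a median of 0.28. Some of these ratios were small or not shared by other probe sets of the gene. Parva counted at 0.12, with -0.20, -0.75 and -0.19 on its others, and Lims1 at a bound of 0.31, with a bound of -0.40 on another. For Lpp and Git2 the probe sets shared 1 direction. The size rule was passed by 4 of them towards D351 (9.49% of all measured genes) and by 0 towards D16 (8.57%). Lims2 (PINCH2), which joins integrin-linked kinase to its complex, read 18.6 and 82.3 (4.42-fold). Kank1, which binds talin at the rim of adhesions, read 159.7 and 584.0 (3.66-fold, an _f probe set) and 41.9 and 82.4 on an _i probe set. Stard8, of the tensin-binding Dlc1 family, read 3.2 and 36.5 (at least 2.17-fold), and its other probe set was under the floor.

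The tensin family differed among its members. Tns3 read 280.6 in D16 and 633.6 in D351, 2.26-fold higher in D351, in the same direction as both Tns1 probe sets. Tns4, a short tensin without the actin-binding part, read 26.6 and 6.3, so its log2 ratio is at most -0.66, in the other direction and short of the size rule. Tns4 and the next 4 adaptors are named here after their values were seen. Dlc1, a tensin partner, read 34.0 and 67.7 (1.99-fold), and Lpp, a LIM protein that binds palladin, read 298.7 and 576.5 (1.93-fold), with 2.09-fold on another probe set. Migfilin, from Fblim1, a filamin partner, read 623.0 and 513.0 (log2 -0.28) with 0.60 on another probe set, so it had no common direction. The talin gene on the array, Tln2, read 130.8 and 78.3 (log2 -0.74).

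Relatives and partners of Flnc, Synpo2 and palladin were looked up among the genes of the Z-disc. Of 20 Z-disc and costamere genes with a probe set 10 were under the floor, and among the 10 measured 0 passed the size rule in either direction. Of all measured genes 9.49% passed it towards D351 and 8.57% towards D16, so a count of 0 among 10 says little. The median of these 10 Z-disc and costamere genes was 0.12, with 6 above 0 and 4 below. It was -0.26 where the floor was reached on both arrays. Myopalladin, from Mypn, read 13.2 and 19.9 (log2 of at least 0.24), and myotilin, from Myot, 0.6 and 0.8; both are relatives of palladin. Synpo2l, the closest relative of Synpo2, read 0.8 and 1.3, and Xirp2, a Xin protein, 11.9 and 5.3 on its brightest probe set. Bag3, a co-chaperone that handles damaged filamin, read 19.2 and 34.8 (1.81-fold higher in D351), opposite in direction to Flnc. Utrophin, from Utrn, a partner of aciculin, read 187.6 and 342.4 on an _s probe set (1.83-fold) and 77.1 and 246.4 on a plain one (3.20-fold), both higher in D351 as Pgm5 was. Xirp2, Bag3 and Utrn are named here after their values were seen.

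**Figure D3:**
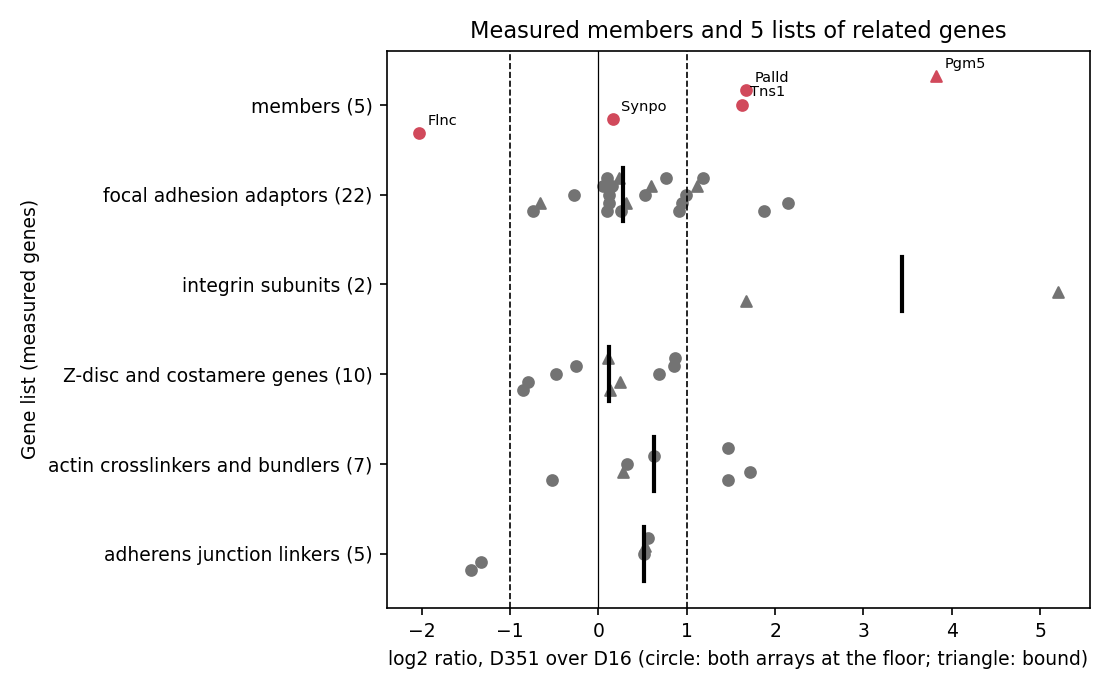
Log2 ratio of D351 over D16 (horizontal) by brightest probe set for the 5 measured members and measured genes of 5 lists of related genes. Circles mark genes at or above the floor on both arrays, and triangles mark bounds. Thick bars are list medians, and dashed lines are at 2-fold. Palld, Tns1 and Pgm5 lie right of the 2-fold line and Flnc left of it, while list medians lie between 0.12 and 0.63 except for the 2 integrin subunits (3.44), the junction linkers being drawn with Pgm3 (median -0.40 without it).

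Actin crosslinkers and bundlers (7 measured) had a median log2 ratio of 0.63, with 6 above 0, and of 0.15 with the floor at the 75th percentile. Past the size rule were 3 towards D351, against a share of 9.49% among all measured genes, and 0 towards D16, against 8.57%. Lima1 (EPLIN), which bundles actin, read 19.2 and 53.1 (2.77-fold), and the spectrin Sptbn1 read 71.7 and 198.3 (2.77-fold). Tropomyosin 1, from Tpm1, read 17.1 and 55.9 on its brightest probe set (3.27-fold), with log2 ratios of -0.15 and 0.02 on the others. Of 5 integrin subunits with a probe set 2 were measured, Itga11 (2.9 and 617.2, at least 36.7-fold) and Itga9 (9.5 and 53.6, at least 3.19-fold), and both are bounds. The list of adherens junction linkers also holds the phosphoglucomutase relatives of Pgm5, which are enzymes and not linkers. Its median over 5 measured genes was 0.52, the value of Pgm3, and over the 4 without these relatives, left out after the values were seen, it was -0.40. Of these 4, 2 were at least 2-fold lower in D351 (8.57% of all measured genes). The other 2, Nectin1 (log2 0.56) and Nectin3 (log2 of at least 0.53), were higher in D351 and short of the size rule. The median of -0.40 thus lies between 2 genes in each direction. The median of the whole list turned to -0.99 with the floor at the 75th percentile. Afadin, from Afdn, which links nectins to actin, read 254.0 and 93.8 (2.71-fold lower) and 214.8 and 50.8 on another probe set. T-cadherin, from Cdh13, was 2.51-fold lower on an _f probe set and 2.13-fold lower on a plain one. This cadherin has no cytoplasmic part and so is not a linker to actin. It was kept in the median of -0.40, which was not computed without it. Pgm3, an enzyme of the Pgm5 family, read 27.8 and 40.0 (log2 0.52), and Pgm2l1 was under the floor on its 3 probe sets. Of the Pgm5 relatives only Pgm3 was therefore measured, and it was short of the size rule.

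Most measured markers of embryonic fibroblasts, the feeder cell type, were higher in D351. Of 20 such markers 6 were on the array and all 6 were measured. At least 2-fold higher in D351 were 5 (9.49% of all measured genes) and at least 2-fold lower was 1 (8.57%). Their brightest probe sets summed to 997.2 in D16 and 2454.2 in D351. Large parts of the sums were Sfrp1 (48.2 and 900.3), Prrx1 (149.3 and 546.8) and Cd248 (238.9 and 564.0). The lower one, Tcf4, read 544.8 and 205.6 and was the largest part of the D16 sum. The TCF4 protein used as a fibroblast marker comes from a different gene, so Tcf4 is a doubtful member of this list. Among smooth muscle markers 8 of 15 were on the array and 3 were measured, with summed signals of 962.0 and 1575.1. Most of these sums was Cald1 (874.9 and 1357.6), which is also in the crosslinker list. Mylk read 21.1 and 148.5 (7.04-fold higher in D351), Myh11 was near equal (36.8 and 35.6), and the other 5 were under the floor. Pericyte markers (4 of 11 on the array, 1 measured) summed to 99.7 and 39.0. Most of these sums was Cspg4 (83.3 and 26.1), the same probe set as among the mesoangioblast markers, and the rest was under the floor. Endothelial markers (5 of 17, 3 measured) summed to 145.2 and 137.7, a total that joins opposite differences in Nrp2 (54.8 and 18.7) and Flt1 (10.3 and 44.5). Skeletal and cardiac muscle markers (3 of 21, 2 measured) summed to 77.7 and 63.8. Here too the directions were opposite: Gata4 read 54.3 and 0.5 (log2 of at most -1.69), and Tbx5 7.0 and 49.0 (log2 of at least 1.54). The rest of the muscle sums was Ttn, under the floor. Blood markers (1 of 11, measured) summed to 45.4 and 61.1, and epithelial markers (1 of 8, under the floor) to 6.5 and 4.8. The part of other cell types in the member ratios was not tested.

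The neighbours of 4 members on their chromosomes were read after the member values were seen, as the nearest 5 measured genes on each side in the gene order of assembly GRCm38.p6. All 10 measured neighbours of Flnc on chromosome 6 had ratios below 0, as Flnc had, with a median log2 ratio of -0.76, while the median of chromosome 6 without Flnc was 0.18. Of these 10, 4 were at least 2-fold lower in D351, against 8.57% of all measured genes. Prrt4 was near 0 (log2 -0.04). Fscn3 (log2 of at most -0.28) and Ssmem1 (at most -0.03) were bounds close to the floor, so part of this pattern rests on small values. Hilpda, a lipid droplet protein gene induced by hypoxia and next to Flnc in this order, read 231.5 in D16 and 60.3 in D351 (3.84-fold lower). Tmem209, of the nuclear envelope, read 262.6 and 72.7 (3.61-fold lower). Rbm28, a nucleolar RNA-binding protein, was 2.59-fold lower and Klhdc10 2.51-fold lower. Over all 4711 measured genes with 5 measured neighbours on each side, 0.998% had all 10 below 0, and neighbouring genes can share windows. The stretch was short: with 10 genes on each side 13 of 20 were below 0, and with 20 on each side 20 of 40, at a median of 0.01.

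No member that was higher in D351 had all 10 measured neighbours in its own direction. Of the 10 measured neighbours of Tns1 8 were below 0, with a median of -0.41, opposite to Tns1 itself. Around Palld 4 were above 0 and 6 below, with a median of -0.21. The transcription factor gene Hand2 was higher in D351 (18.0 and 128.2, 7.12-fold) and Tma16 lower (91.5 and 37.8, 2.42-fold). Around Pgm5 8 of 10 were above 0, with a median of 0.23, and the adhesion adaptor Kank1 was the 1 neighbour at least 2-fold higher in D351, with 159.7 and 584.0. Apba1, another Pgm5 neighbour, was 2.91-fold lower.

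**Figure D4:**
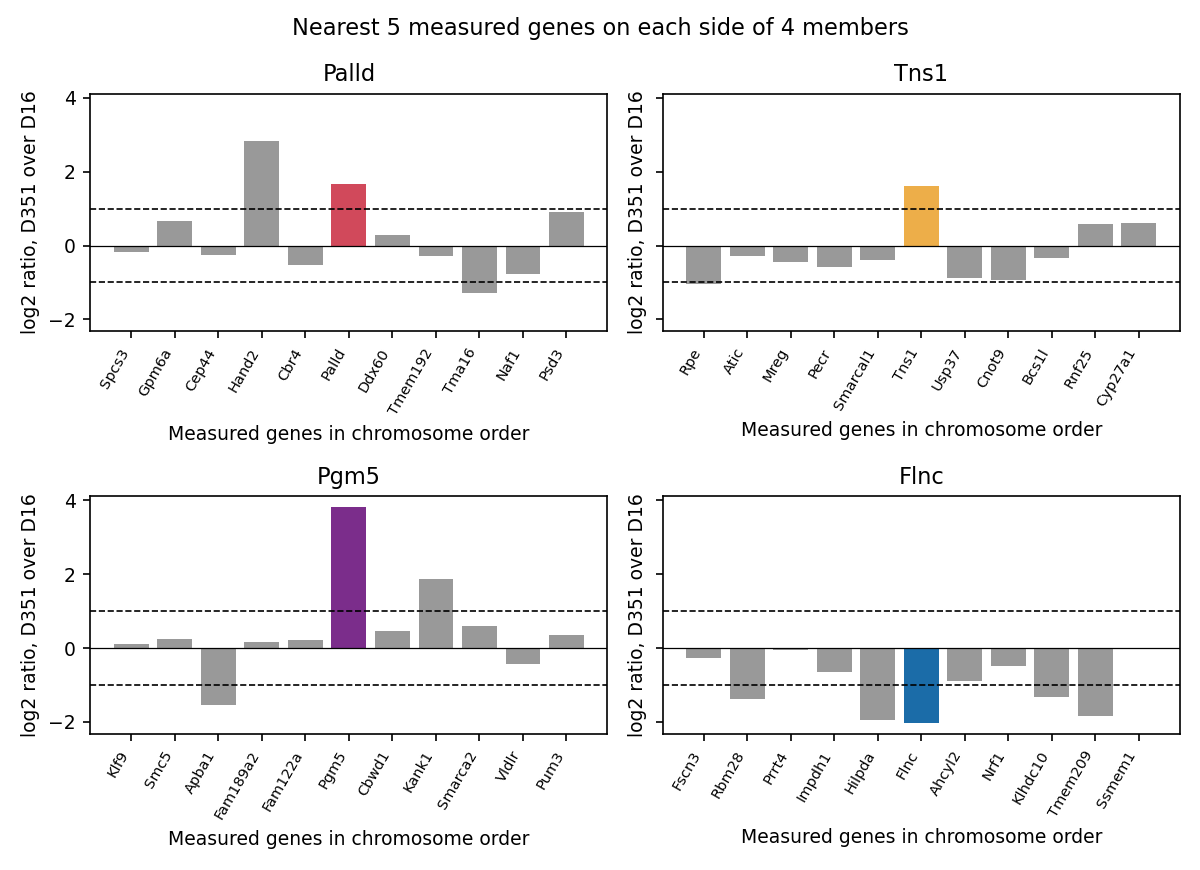
Log2 ratio of D351 over D16 (vertical) for Palld, Tns1, Pgm5 and Flnc (coloured bars) and the nearest 5 measured genes on each side of each (grey bars) in chromosome order, with dashed lines at 2-fold. All 10 neighbours of Flnc lie below 0, against 6 of Palld, 8 of Tns1 and 2 of Pgm5. Near Flnc, Prrt4 (-0.04) and Ssmem1 (-0.03) lie close to 0.

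Ratios of the members were recomputed under other floors and scalings. The brighter Tns1 probe set stayed between 1.52 and 1.63 and the dimmer between 0.78 and 0.89. Flnc stayed between -2.06 and -1.89 wherever its _f probe set was kept. The dimmest Palld probe set, 112209_at, ranged from 0.47 to 0.93, the low end under the 75th percentile floor, and did not reach 2-fold under any of them. Pgm5 was past 2-fold under each setting that gave it a ratio, from 2.15 to 4.18, and it has no ratio where the floor must be reached on both arrays.

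**Figure D5:**
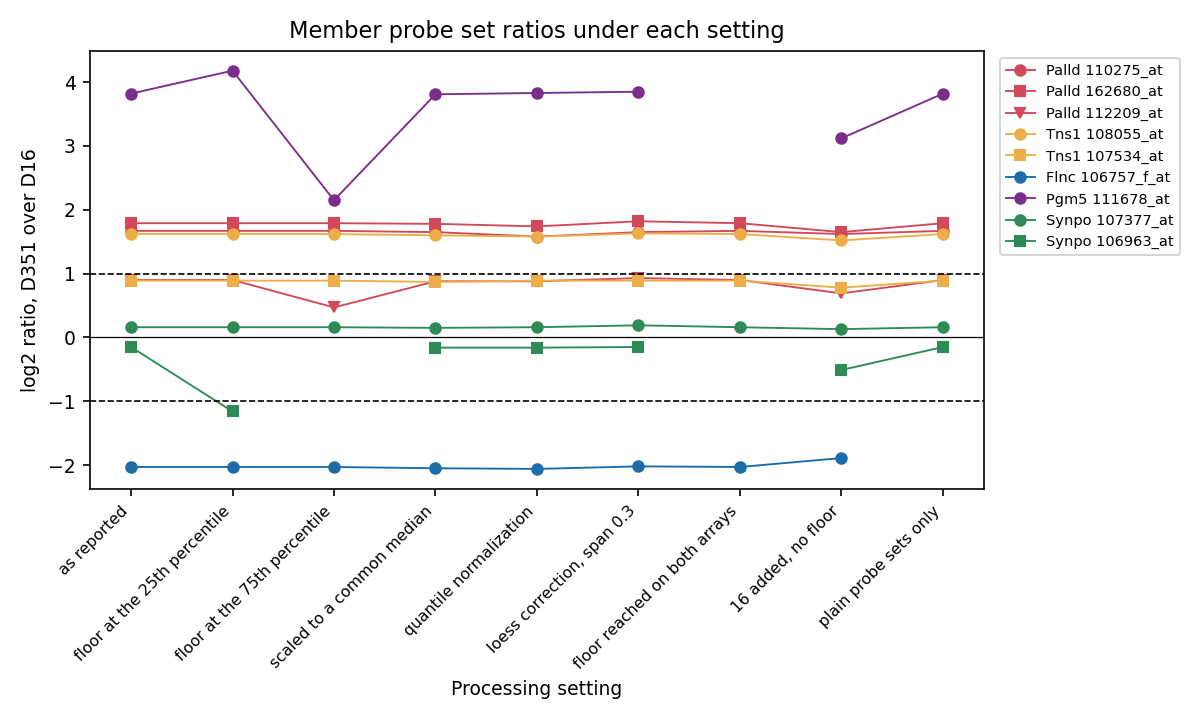
Log2 ratio of D351 over D16 (vertical) of each of the 9 measured probe sets of 5 members under the reported setting and 8 other settings (horizontal), with dashed lines at 2-fold and gaps where a setting gives no ratio. The 2 brightest Palld probe sets stay between 1.58 and 1.82 and Flnc between -2.06 and -1.89, while Pgm5 moves between 2.15 and 4.18 with the floor.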

How the data were processed

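Expression was measured in clones D16 and D351 on 1 array each. The deposited table holds a linear intensity for each probe set in each clone, processed by the authors with software and background correction that are not given in the sources used here. Means without the lowest and highest 2% were 40.0 in both columns, as after scaling to one target, which would hide any shift common to most transcripts. Depth does not apply to arrays; their number limits the precision. Values were used as deposited, without the 66 control probe sets, floored at the pooled 50th percentile, and compared as log2 ratios. Symbols came from GEO's platform annotation; 0 were renamed by RefSeq gene identifiers. A gene was represented by its brightest measured probe set. No test was run, since there are no replicates. The members and lists were chosen with earlier results of these data known. Named were all members, genes of 5 lists past 2-fold (up to 5 per list and direction) and relatives of the members. The ratio code was tested on simulated data. Alternatives were other floors, scalings, size rules and probe set choices. Python 3.11.15, numpy 2.4.6, pandas 2.3.3 and statsmodels 0.14.6 were used.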

Additional observations from a re-analysis of the deposited data

How the results depend on the processing

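The count of member genes past the size rule towards D351 was 3 as reported. Among 11 other settings it changed only where the floor must be reached on both arrays, to 2, since Pgm5 is left out. The count of member probe sets was 4 as reported. Among 10 other settings it was 3 with the floor reached on both arrays, 6 under a 1.5-fold size rule and unchanged otherwise. These counts stayed within 1.5 times of the reported ones. With plain probe sets only, the counts at least 2-fold lower were 0 for genes and 0 for probe sets, because the Flnc probe set is left out; with the floor at the 25th percentile 2 probe sets were 2-fold lower, since the dim Synpo probe set was added. The Pgm5 log2 ratio was 2.15 under the 75th percentile floor and 3.12 with 16 added in place of a floor. The yardstick for single values and list medians was the SD of 0.50 per probe set between probe sets of a gene. For medians it was divided by the root of the number of genes. It covers probe design and not the spread between genes or cultures, so it is no error of a list median. With the floor at the 25th percentile the medians were 0.29 for Z-disc genes, 0.89 for crosslinkers, 0.43 for focal adhesion adaptors and 1.29 for integrins. With the floor at the 75th percentile they were 0.15 for crosslinkers, 1.77 for integrins and -0.99 for adherens junction linkers, the last reversed on 3 genes. With the floor reached on both arrays Z-disc genes reversed to -0.26, crosslinkers were at 1.05 and junction linkers at 0.18. Without the phosphoglucomutase relatives, a choice made after seeing the data, junction linkers reversed to -0.40. Crosslinkers were at 0.32 with the median over probe sets and 1.05 with plain probe sets only. Apart from fewer or more genes tested, the cause was not tested. Arrays could not be left out, and no paired analysis was possible because each clone has 1 array. Signals near the floor limit Synpo2, Vcl and the dim Synpo probe set, and in D16 also Lims2, Lima1 and the brightest Tpm1 probe set.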
